A study of Drosophila melanogaster with 7 samples.

Results

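Nuclear receptors are transcription factors that carry a zinc-finger DNA-binding domain and, in most of them, a pocket for a small lipophilic ligand, so that hormones, sterols or fatty acids can set the activity of their target genes. The genes described here are 10 rows of a table of 10902 genes, chosen by their symbols: the nuclear receptors EcR, usp, Eip75B, Hr3, Hr39, Hr96, Hnf4, ERR and ftz-f1, and the ETS-domain factor Eip74EF. In Drosophila the steroid hormone ecdysone binds the pair of EcR and usp, the pair switches on early genes such as Eip75B and Eip74EF, and these together with Hr3 and ftz-f1 pass the signal on to later genes. In the adult midgut ecdysone signalling is known for its part in intestinal stem cell division and differentiation in mated females, while Hnf4, Hr96 and ERR are known for their parts in fatty acid, sterol and sugar metabolism.

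Transcript counts came from 7 RNA sequencing libraries of Drosophila midgut, dissected free of crop, Malpighian tubules and hindgut, 7 days after adults had been shifted from 18 to 29 °C. All 3 groups carried esgts, a temperature-sensitive Gal4 driver controlled by escargot and active in intestinal stem cells and their undifferentiated daughters. Controls were esgts> w1118 (n = 3), the second group was esgts> Shn-RNAi (n = 2), with RNA interference targeting schnurri (shn), whose product acts with Smads in BMP signalling, and the third was esgts> Shn-RNAi,PucE69/+ (n = 2), which in addition had 1 mutant copy of puckered, a phosphatase that restrains JNK. The series title calls the second group tumor and the third severe tumor, and the labels give neither the sex of the flies, nor the number of guts per library, nor whether libraries came from separate cultures. P-values therefore measure only the spread between these libraries, which may be technical, and strain background cannot be told apart from RNAi in a comparison with w1118.

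Libraries held 11552527 to 18490676 counts. Transcripts of shn were not lower in the RNAi libraries but stood above every control (54.1 to 69.7 CPM against 42.4 to 47.4 CPM in control). CPM is the usual count-per-library-size unit, with library totals scaled by TMM. In the edgeR test described below, the log2 difference of shn from control was 0.48 with Shn-RNAi (adjusted p = 0.0906) and 0.63 with PucE69/+ (adjusted p = 0.0314). Midgut RNA does not resolve the cells in which the driver is active. Directions below are therefore those of libraries named by their labels. The control libraries held 72.3, 70.2 and 82.2 CPM of puckered (puc) transcripts, against 93.5 and 101 for the Shn-RNAi label and 86.5 and 88.3 for the label with a mutant copy of it, so puc was not below control there either. Enterocyte markers were abundant (9 of 9 listed genes found). Their summed level was 108300 to 136300 CPM in control, 74800 to 131200 in Shn-RNAi-labelled libraries and 79300 to 85580 with PucE69/+. Most of this sum came from the proteases Jon65Aiii, alphaTry and betaTry (control means 42489, 41232 and 36478 CPM). Listed genes went both ways: in the same order of groups, betaTry averaged 36478, 16340 and 13573 CPM, and nub 76.9, 147 and 133 CPM. Ovary markers (6 of 10 found) stood at 0.616 to 2.88 CPM in sum. Summed progenitor markers (10 of 10 found) stood at 125 to 166 CPM in control, 221 to 255 in Shn-RNAi-labelled libraries and 184 to 230 in the Shn-RNAi,PucE69/+-labelled libraries. Most of this sum was peb, with group means of 88.5, 153 and 129 CPM in that order. Means of esg were 16.0, 16.8 and 17.3 CPM, and those of klu 3.33, 2.92 and 3.22 CPM. Those of Sox21a were 6.623, 14.02 and 14.35 CPM, and those of hdc 9.419, 18.98 and 16.58 CPM. Over the 10 progenitor markers the median log2 difference from control was 0.69 with Shn-RNAi and 0.46 with PucE69/+. Both libraries of the RNAi group lay above every control for 5 and 4 of the 10 genes, and below every control for 0 and 1. Summed visceral muscle markers (10 of 10 found) stood at 3576 to 3793, 2330 to 2494 and 1837 to 2168, and summed Malpighian tubule markers (7 of 7 found) at 166 to 175, 172 to 262 and 204 to 285, in the same order of groups. Summed enteroendocrine markers (12 of 12 found) stood at 297 to 318, 299 to 421 and 364 to 426, and summed fat body markers (7 of 9 found) at 502 to 862, 357 to 649 and 404 to 443. The part of these shifts in any result below was not tested, and in bulk RNA fewer cells of a type cannot be told apart from less RNA per cell.

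Of the 10 genes, Hr96 and ERR were called in comparisons with control, while the ecdysone receptor pair and the metabolic receptor Hnf4 were not. Hr96, a receptor for sterol, triglyceride and xenobiotic responses, was 1.89-fold higher in Shn-RNAi-labelled libraries and 1.85-fold higher in the Shn-RNAi,PucE69/+-labelled libraries than in control. ERR, the fly estrogen-related receptor and a regulator of carbohydrate use, was 1.67-fold lower in the first of these groups (called) and 1.47-fold lower in the second (just past the threshold, not called). EcR, usp, Eip75B, Eip74EF, Hr3, Hr39, Hnf4 and ftz-f1 were not called in any comparison. A gene was called at an edgeR quasi-likelihood adjusted p under 0.05, Benjamini-Hochberg adjusted across the 9076 genes tested, which included all 10 genes. Over those 9076 genes 6.06% were called higher and 3.56% lower in the first comparison with control, and 8.76% and 6.25% in the second. Calls among the 10 genes were near these shares. In the first comparison, the calls of Hr96 and ERR were both lost when control library 1 or control library 3 was left out.

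**Figure D1:**
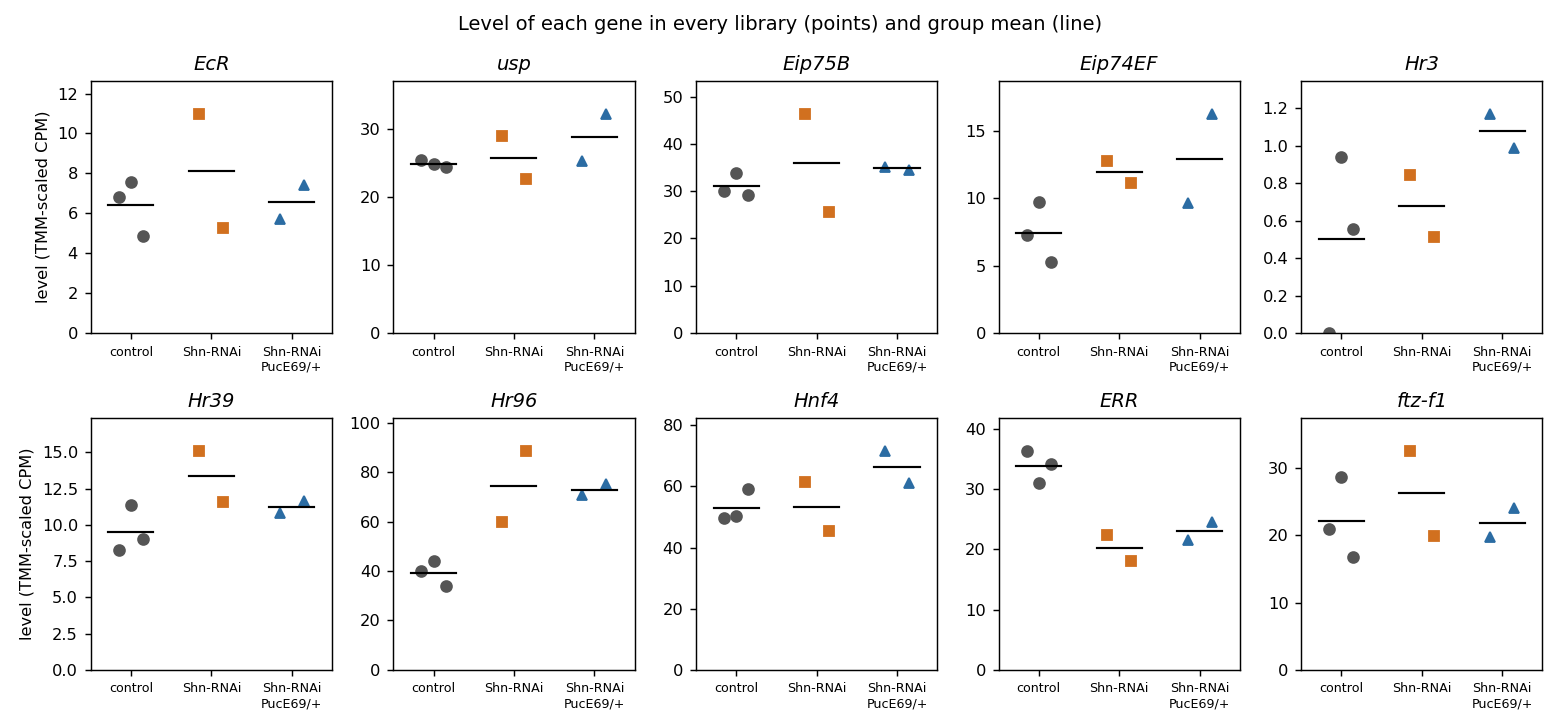
Level of each of the 10 genes in TMM-scaled CPM (vertical axis, from 0) in the 3 control, 2 Shn-RNAi and 2 Shn-RNAi,PucE69/+ libraries. Points are libraries and lines are group means. Hr96 lay between 34.1 and 44.1 CPM in control and between 59.9 and 88.7 CPM in the other 4 libraries, and ERR between 30.9 and 36.4 CPM and between 18.1 and 24.6 CPM.

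EcR (FBgn0000546; 2R 6087873 to 6169087 in BDGP6.54, the build of all positions here, minus strand, 6 annotated transcripts) encodes the ecdysone-binding subunit. It stood at 6.80, 7.58 and 4.86 CPM in the control libraries, at 10.98 and 5.28 CPM in the Shn-RNAi-labelled libraries, and at 5.72 and 7.42 CPM in the Shn-RNAi,PucE69/+-labelled libraries. The groups overlapped, and the 2 Shn-RNAi libraries were the highest and the second lowest of the 7. Its log2 difference from control was 0.35 (SE 0.33, approximate 95% interval -0.42 to 1.11, edgeR adjusted p = 0.562) in the Shn-RNAi-labelled libraries and 0.03 (SE 0.34, interval -0.75 to 0.81, adjusted p = 0.968) with PucE69/+.

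The partner usp (FBgn0003964; X 2038798 to 2042311, minus strand), the fly counterpart of the retinoid X receptors, was the steadiest of the 10 across all 7 libraries. It stood at 25.4, 24.8 and 24.5 CPM in control, at 29.0 and 22.7 CPM in the Shn-RNAi-labelled libraries, and at 25.4 and 32.3 CPM in the Shn-RNAi,PucE69/+-labelled libraries, so that its highest library was 1.42 times its lowest. Its log2 difference from control was 0.05 (SE 0.16, interval -0.33 to 0.43) and 0.21 (SE 0.16, interval -0.17 to 0.59), with edgeR adjusted p of 0.871 and 0.444. The annotation places 265 exonic bases of usp on the same strand as exons of Actn, the muscle alpha-actinin, at 49.3 to 67.6 CPM, so that reads from these bases could be given to either gene. Per kilobase of transcript usp stood above EcR in every library, by 4.80- to 9.18-fold.

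Eip75B (FBgn0000568; 3L 17950953 to 18064696, minus strand, 7 transcripts), an early ecdysone response gene that encodes a heme-binding receptor, stood at 30.01, 33.8 and 29.2 CPM in control. It was at 46.3 and 25.5 CPM in the Shn-RNAi-labelled libraries, which were the highest and the lowest of all 7, and at 35.1 and 34.5 CPM in the Shn-RNAi,PucE69/+-labelled libraries, just above every control library. Its log2 difference from control was 0.22 (SE 0.23, interval -0.32 to 0.75) and 0.17 (SE 0.23, interval -0.37 to 0.71).

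Eip74EF (FBgn0000567; 3L 17558672 to 17619325, minus strand), the other early gene, stood at 7.31, 9.68 and 5.26 CPM in control, at 12.8 and 11.2 CPM in the Shn-RNAi-labelled libraries, and at 9.61 and 16.3 CPM in the Shn-RNAi,PucE69/+-labelled libraries. Both Shn-RNAi libraries lay above all controls, while 1 Shn-RNAi,PucE69/+ library fell just below the highest control. The log2 differences, 0.68 (SE 0.30, interval -0.00 to 1.37, edgeR adjusted p = 0.189) and 0.79 (SE 0.30, interval 0.11 to 1.48, adjusted p = 0.113), were not called. With the transcript-length trend described below taken out they were 0.33 and 0.56.

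Hr3 (FBgn0000448; 2R 10203995 to 10237348, minus strand), an early-late gene that in larvae and prepupae is needed to switch on ftz-f1, was close to the limit of detection. It had 0, 17 and 7 counts in the control libraries, 15 and 7 in the Shn-RNAi-labelled libraries, and 18 and 14 in the Shn-RNAi,PucE69/+-labelled libraries, which is at most 1.17 CPM. Its log2 differences of 0.40 (SE 0.89) and 1.05 (SE 0.85) have intervals of -1.65 to 2.45 and -0.91 to 3.01, so this depth could not show changes of that size. The annotated gene CG46321 shares 6071 exonic bases with Hr3 on the same strand and had 6 to 19 counts per library, so the split of reads between them is uncertain.

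ftz-f1 (FBgn0001078; 3L 18750607 to 18801309, minus strand), which gives prepupal tissues their competence to respond to the next ecdysone pulse, stood at 21.0, 28.6 and 16.7 CPM in control. Its levels were 32.6 and 19.9 CPM in the Shn-RNAi-labelled libraries and 19.8 and 24.02 CPM in the Shn-RNAi,PucE69/+-labelled libraries. The groups overlapped, with log2 differences from control of 0.25 (SE 0.27, interval -0.38 to 0.88) and -0.02 (SE 0.28, interval -0.66 to 0.62). The non-coding gene lncRNA:CR45939 shares 2521 exonic bases with it on the same strand.

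Hr39 (FBgn0261239; 2L 21237250 to 21259675, plus strand), a receptor of the same subfamily that is needed for the glands of the female reproductive tract, stood at 8.24, 11.3 and 8.999 CPM in control. It was at 15.1 and 11.59 CPM in the Shn-RNAi-labelled libraries, both above all controls, and at 10.9 and 11.7 CPM in the Shn-RNAi,PucE69/+-labelled libraries, where the groups overlapped. The log2 differences were 0.49 (SE 0.20, interval 0.03 to 0.94, edgeR adjusted p = 0.16) and 0.24 (SE 0.20, interval -0.22 to 0.69, adjusted p = 0.48), and 0.23 and 0.06 with the transcript-length trend taken out.

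Libraries differed in how high long transcripts stood relative to short ones, and 7 of the 10 genes (EcR, Eip75B, Eip74EF, Hr3, Hr39, Hnf4 and ftz-f1) belong to the longest of 4 equal classes of tested genes by median transcript length. Measured as the gap between the medians of the longest and shortest classes, this was 0.59 on the log2 scale in Shn-RNAi library 1, the highest of the 7, and -0.26 in Shn-RNAi library 2. Control libraries had gaps of -0.31, 0.00 and -0.39, and in the Shn-RNAi,PucE69/+-labelled libraries it was 0.08 and 0.32. Between the Shn-RNAi libraries 9 of the 10 genes stood higher in library 1, and Hr96 was the exception. The ratio was 2.08-fold for EcR, 1.81-fold for Eip75B and 1.64-fold for ftz-f1. For the other members in the longest class it was 1.636-fold (Hr3, at low counts), 1.348-fold (Hnf4), 1.305-fold (Hr39) and 1.146-fold (Eip74EF). It was 1.28-fold for usp and 1.23-fold for ERR, which are outside the longest class, so Eip74EF lay below both. The same share over all genes was not counted. With the transcript-length trend taken out, the log2 difference between Shn-RNAi and control was -0.01 for EcR, -0.09 for usp, -0.18 for Eip75B, -0.12 for ftz-f1 and -0.19 for Hnf4. It was 0.33 for Eip74EF, 0.23 for Hr39 and 0.03 for Hr3, while Hr96 was 0.80 and ERR -0.75, both still called.

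Among the receptors tied to metabolism, Hr96 (FBgn0015240; 3R 25025235 to 25029351, plus strand, 1 transcript) was called in both comparisons with control. It stood at 39.9, 44.1 and 34.1 CPM in control, at 59.9 and 88.7 CPM in the Shn-RNAi-labelled libraries, and at 70.6 and 75.4 CPM in the Shn-RNAi,PucE69/+-labelled libraries. All 4 RNAi libraries lay above all 3 controls. Group means were 39.4 ± 5.03 CPM (SD, n = 3), 74.3 ± 20.4 CPM (n = 2) and 73.0 ± 3.42 CPM (n = 2). The log2 difference was 0.91 (SE 0.20, interval 0.46 to 1.37, edgeR adjusted p = 0.0283) in the Shn-RNAi-labelled libraries and 0.89 (SE 0.20, interval 0.43 to 1.35, adjusted p = 0.0238) in the Shn-RNAi,PucE69/+-labelled libraries. The 2 comparisons share their controls. Refitted without each library in turn, the first comparison was called in 2 of 7 fits (adjusted p up to 0.0945 without control library 1; log2 0.61 without Shn-RNAi library 2) and the second in 3 (up to 0.176 without Shn-RNAi,PucE69/+ library 2). The first call was also lost in a fit of only the control and Shn-RNAi libraries (adjusted p = 0.0507).

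ERR (FBgn0035849; 3L 8183361 to 8186671, minus strand, 2 transcripts), which in larvae is known to drive genes of glycolysis and lactate production, lay lower in the RNAi libraries. It stood at 36.4, 30.9 and 34.2 CPM in control, at 22.4 and 18.1 CPM in the Shn-RNAi-labelled libraries, and at 21.5 and 24.6 CPM in the Shn-RNAi,PucE69/+-labelled libraries. All 4 RNAi libraries lay below all 3 controls, with group means of 33.8 ± 2.74 CPM (SD, n = 3), 20.2 ± 2.99 CPM (n = 2) and 23.04 ± 2.18 CPM (n = 2). The log2 difference was -0.74 (SE 0.16, interval -1.10 to -0.38, edgeR adjusted p = 0.0266) in the Shn-RNAi-labelled libraries, and it was called lower. In the Shn-RNAi,PucE69/+-labelled libraries it was -0.55 (SE 0.16, interval -0.91 to -0.19, adjusted p = 0.0503) and was not called. Without 1 library at a time the first call was kept in 2 of 7 refits (adjusted p up to 0.135, without control library 1), and the second comparison was called in 2 of 7 (up to 0.229, without Shn-RNAi,PucE69/+ library 1). ERR overlaps 2 antisense RNAs on the opposite strand, and the use of strand in counting is a step not given in the sources used here.

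**Figure D2:**
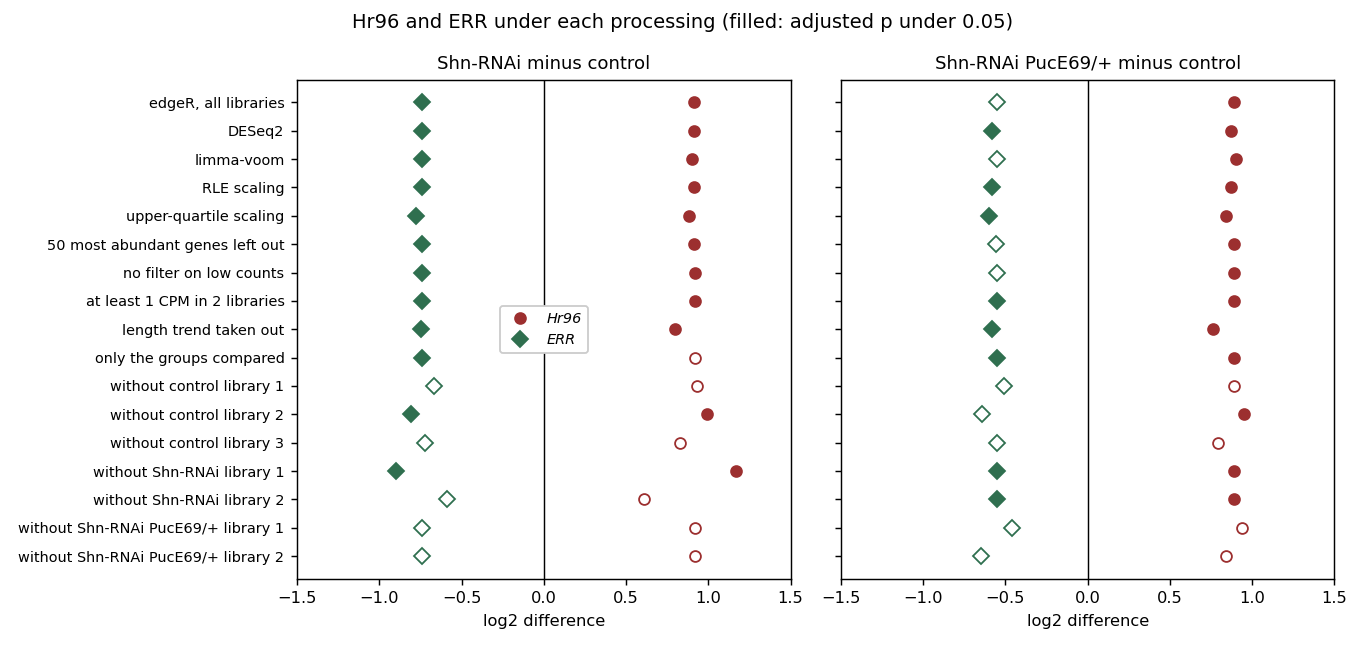
Log2 difference from control of Hr96 and ERR (horizontal axis) under each test, scaling, filter and set of libraries (rows), for Shn-RNAi-labelled libraries and Shn-RNAi,PucE69/+. Filled symbols had an adjusted p under 0.05. Every value of Hr96 was above 0 (0.61 to 1.17) and every value of ERR below (-0.90 to -0.46).

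Hnf4 (FBgn0004914; 2L 8687226 to 8709611, minus strand, 5 transcripts), a fatty acid-responsive receptor needed for lipid mobilization in larvae, stood at 49.6, 50.4 and 59.0 CPM in control. It was at 61.3 and 45.5 CPM in the Shn-RNAi-labelled libraries, on either side of the controls, and at 71.7 and 61.3 CPM in the Shn-RNAi,PucE69/+-labelled libraries, above all controls. The log2 differences were 0.01 (SE 0.18, interval -0.40 to 0.43, edgeR adjusted p = 0.972) and 0.33 (SE 0.18, interval -0.08 to 0.74, adjusted p = 0.259).

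**Figure D3:**
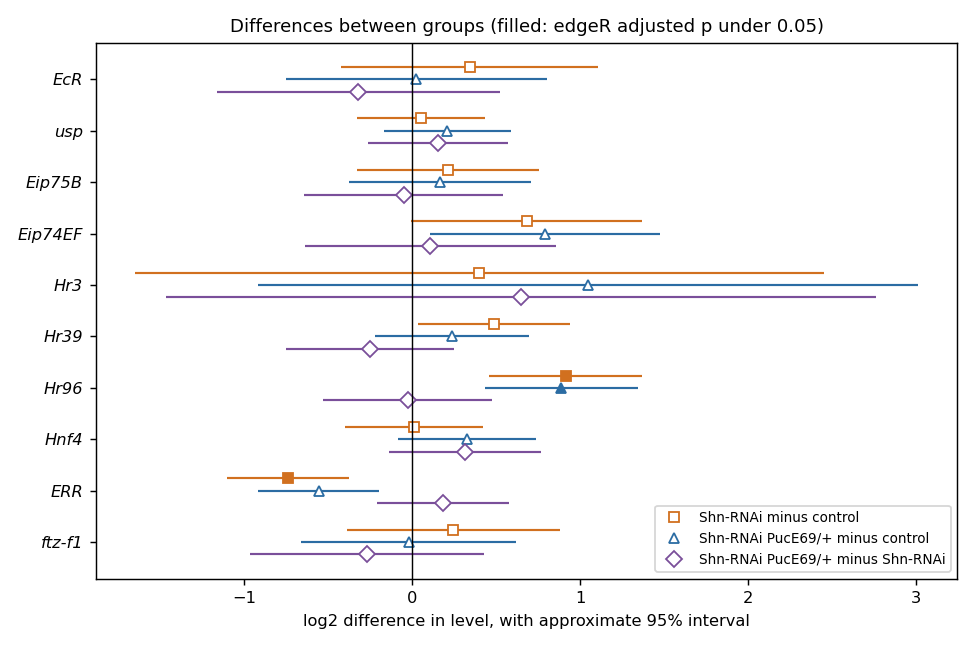
Log2 difference in level (horizontal axis) with its approximate 95% interval for the 10 genes in 3 comparisons, from the edgeR fit of all 7 libraries. Filled symbols passed an adjusted p under 0.05, which were Hr96 in both comparisons with control (0.91 and 0.89) and ERR in the Shn-RNAi-labelled libraries (-0.74).

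Counted over the 10 genes, 1 was called higher and 1 lower in the Shn-RNAi-labelled libraries, where 6.06% of all genes tested were called higher and 3.56% lower. In the Shn-RNAi,PucE69/+-labelled libraries 1 was called higher and 0 lower, where 8.76% of all genes were called higher and 6.25% lower. At an unadjusted edgeR p under 0.05 there were 3 of the 10 genes in each of these comparisons (Hr96, ERR and Hr39 in the first; Hr96, ERR and Eip74EF in the second), against 26.8% and 30.6% of all genes tested. In the second, DESeq2 called 1 gene lower, ERR (adjusted p = 0.0466). Every Shn-RNAi library lay above every control for 3 of the 10 genes and below for 1, against 22.1% and 21.2% of all genes tested. Every Shn-RNAi,PucE69/+ library lay above every control for 4 and below for 1, against 28.5% and 26.4% of all genes. These shares over 10 genes are near those of the whole table. The median log2 difference over the 10 genes was 0.30 (-0.15 without Shn-RNAi library 1) and 0.22, against 0.03 and 0.02 over all genes tested. With the transcript-length trend taken out these medians were -0.05 and 0.07, against -0.05 and -0.00 over all genes.

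Between the RNAi groups, which differ by their labels in the puckered allele, 0 of the 10 genes were called by edgeR, DESeq2 or limma-voom, and 0 had an unadjusted edgeR p under 0.05, as 6.38% of all genes tested did. Of all genes tested 0.0881% were called higher and 0.0551% lower in that comparison. Hr96 differed by -0.03 on the log2 scale (SE 0.22, interval -0.53 to 0.48, edgeR adjusted p = 0.994) and ERR by 0.18 (SE 0.17, interval -0.21 to 0.58, adjusted p = 0.911). Hnf4 differed by 0.32 (SE 0.20, interval -0.14 to 0.77) and usp by 0.16 (SE 0.18, interval -0.26 to 0.57). The intervals of EcR (-1.16 to 0.53), Eip74EF (-0.64 to 0.86) and ftz-f1 (-0.96 to 0.43) were wider. The other members differed by -0.05 (Eip75B, interval -0.64 to 0.54), -0.25 (Hr39, interval -0.75 to 0.25) and 0.65 (Hr3, interval -1.47 to 2.76).

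Set against transcript length, the receptors tied to metabolism stood above the ecdysone cascade. In control the mean level in CPM per kilobase of transcript was 17.6 ± 1.43 for ERR, 16.0 ± 1.59 for Hnf4 and 13.9 ± 1.78 for Hr96 (SD, n = 3). The libraries of ERR overlapped those of Hnf4, and those of Hnf4 overlapped those of Hr96. The next were usp at 8.98 ± 0.164, Eip75B at 5.37 ± 0.419, ftz-f1 at 3.91 ± 1.06 and Hr39 at 2.35 ± 0.399, each with its libraries apart from the next. EcR (1.27 ± 0.278) and Eip74EF (1.23 ± 0.369) overlapped, and Hr3 was last at 0.0797 ± 0.0755. Among all genes with an annotated length, ERR stood at the 72.3rd to 75.0th percentile in the control libraries, EcR at the 29.5th to 32.4th and Hr3 at the 3.7th to 13.0th.

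The upper end of this order differed between groups. In the Shn-RNAi-labelled libraries, Hr96 stood first at 26.2 ± 7.20 CPM per kilobase, followed by Hnf4 at 16.2 ± 3.38 and ERR at 10.52 ± 1.56, each apart from the next gene except that ERR overlapped usp (9.31 ± 1.62). In the Shn-RNAi,PucE69/+-labelled libraries the same order held, again with ERR and usp overlapping, with Hr96 at 25.8 ± 1.21, Hnf4 at 20.1 ± 2.24 and ERR at 11.97 ± 1.13 (n = 2 in both groups). The ratio of Hr96 to ERR per kilobase, which does not depend on how libraries are scaled, was 0.745, 0.968 and 0.678 in the 3 controls. The values were 1.82 and 3.32 in the Shn-RNAi-labelled libraries and 2.23 and 2.08 in the Shn-RNAi,PucE69/+-labelled libraries, so all 4 RNAi libraries lay above the 3 controls, while the RNAi groups overlapped each other. This ratio was chosen after the levels were seen and was not tested.

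**Figure D4:**
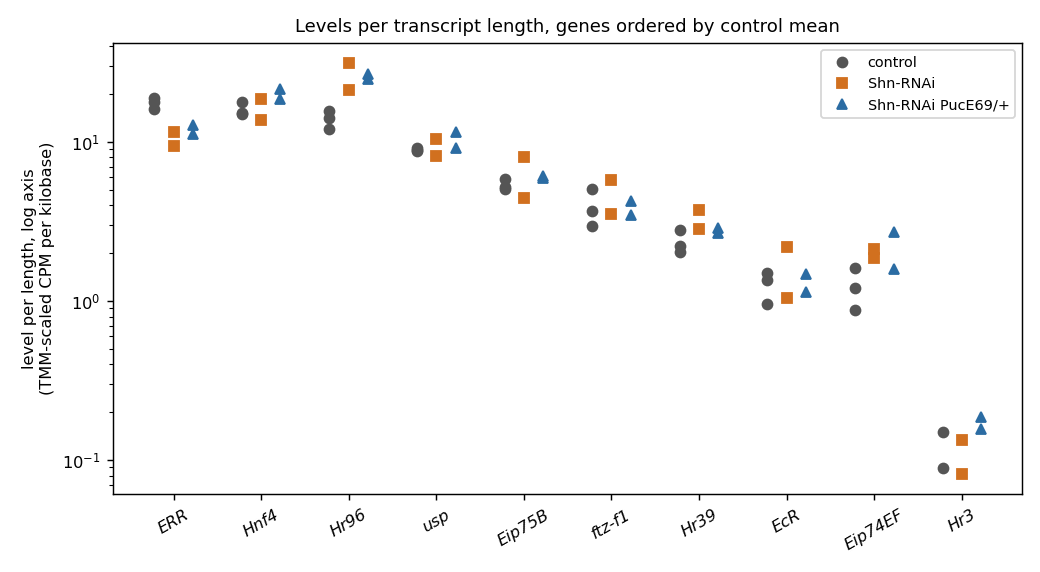
Level per transcript length in TMM-scaled CPM per kilobase (log axis) for the 10 genes, ordered by their control mean, with 1 point per library. Control library 1 had 0 counts of Hr3 and is not drawn for that gene. ERR has the highest control mean (16.1 to 18.9 over the libraries, overlapping Hnf4), and Hr96 leads the other groups at 21.1 to 31.3.

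The genes whose pattern over the 7 libraries lay closest to that of Hr96 were CG5541 and Rho1, a small GTPase of the actin cytoskeleton, out of 1590 variable genes. Their centred log2 levels differed from those of Hr96 by a root mean square of 0.076 and 0.098. CG5541 ranged from 79.9 to 92.9 CPM over the controls and from 143 to 184 CPM over the other 4 libraries. Closest to ERR, out of 1591 genes, were Ttd14 (0.105) and Pbgs, an enzyme of heme synthesis (0.125). Pbgs ranged from 46.7 to 52.5 CPM over the controls and from 22.3 to 35.0 CPM over the other 4 libraries.

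Of 12 other nuclear receptors listed, 7 were in the table and 6 were tested, with 1 called higher and 0 lower in both comparisons with control (median log2 difference 0.12 and 0.44). Call counts of this and the following lists stand against the shares over all genes given above, 6.06% higher and 3.56% lower in the first comparison with control and 8.76% and 6.25% in the second. Hr78, named here after its values were seen, had group means of 33.5 CPM in control, 33.3 CPM in the Shn-RNAi-labelled libraries and 34.4 CPM with PucE69/+, and was not called. The called gene was Eip78C, an ecdysone-inducible receptor and the closest relative of Eip75B. It stood at 2.58, 2.66 and 2.07 CPM in control, at 5.83 and 7.27 CPM in the Shn-RNAi-labelled libraries, and at 5.33 and 11.7 CPM in the Shn-RNAi,PucE69/+-labelled libraries, with no overlap with control. Its log2 difference was 1.41 (SE 0.34, edgeR adjusted p = 0.0399, called in 2 of 7 refits without 1 library, up to 0.122 without control library 3) and 1.80 (SE 0.34, adjusted p = 0.0141, called in 5, up to 0.114 without Shn-RNAi,PucE69/+ library 2; log2 1.13 without that library).

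Of 11 listed genes of ecdysone synthesis, uptake and inactivation, 8 were in the table and 2 had enough counts to be tested. One was shd, the cytochrome P450 that turns ecdysone into its active form 20-hydroxyecdysone in peripheral tissues including the midgut. It stood at 5.80, 4.48 and 13.5 CPM in control, at 1.74 and 0.660 CPM in the Shn-RNAi-labelled libraries, and at 0.520 and 1.84 CPM in the Shn-RNAi,PucE69/+-labelled libraries. All 4 RNAi libraries were below all controls. Its log2 difference was -2.67 (SE 0.69, edgeR adjusted p = 0.05, just under the threshold and called) and -2.75 (SE 0.70, adjusted p = 0.0368, called). The calls were kept in 1 and 3 of 7 refits without 1 library, with adjusted p up to 0.163 when Shn-RNAi library 2 was left out and 0.224 when Shn-RNAi,PucE69/+ library 1 was, and limma-voom made neither (0.079 and 0.0576). The log2 difference ran from -3.56 without Shn-RNAi library 1 to -2.04 without control library 3 in the first comparison, and from -3.90 without Shn-RNAi,PucE69/+ library 2 to -2.10 without library 1 of that group in the second. Oatp74D, the ecdysone importer, is not among these listed genes and was looked at after its values were seen. It stood at 4.06 to 5.09 CPM in control, 3.60 and 4.60 CPM in the Shn-RNAi-labelled libraries and 5.33 and 5.72 CPM in the Shn-RNAi,PucE69/+-labelled libraries. It was not called (edgeR adjusted p = 0.792 and 0.387).

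Among 23 other listed ecdysone response genes, 19 were in the table and 18 were tested. In the Shn-RNAi-labelled libraries 2 were called higher and 0 lower, and in the Shn-RNAi,PucE69/+-labelled libraries 4 higher and 0 lower (median log2 difference 0.37 and 0.34). Both libraries of the RNAi group lay above every control for 11 and 10 of the 18, against 22.1% and 28.5% of all genes tested. They lay below every control for 2 and 3, against 21.2% and 26.4%. The genes called in the first comparison were ImpL2, which encodes a secreted binder of insulin-like peptides, and broad (br), an early zinc-finger gene of the ecdysone cascade. Counts of br were low, at 7, 18 and 3 in control, 52 and 35 in the Shn-RNAi-labelled libraries, and 19 and 33 in the Shn-RNAi,PucE69/+-labelled libraries. Its log2 difference was 2.17 (SE 0.52, edgeR adjusted p = 0.039, called in 1 of 7 refits, up to 0.137 without Shn-RNAi library 1; log2 2.84 without control library 2) and 1.55 (SE 0.54, adjusted p = 0.0918, not called). The adjusted p of br was 0.0636 with no filter on low counts and 0.0519 in a fit of only these groups.

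In the second comparison ImpL2, Sox14, hid and rpr were called higher. ImpL2 ranged from 28.8 to 40.6 CPM over the controls and from 352 to 680 CPM in the other 4 libraries, and was called in all 7 refits of both comparisons. Sox14, a transcription factor that ecdysone induces in metamorphosis, stood at 16.3 to 22.1 CPM in control, at 25.0 and 25.5 CPM in the Shn-RNAi-labelled libraries, and at 33.0 and 33.7 CPM in the Shn-RNAi,PucE69/+-labelled libraries. Its log2 difference was 0.40 (SE 0.15, edgeR adjusted p = 0.144) in the first comparison and 0.80 (SE 0.15, adjusted p = 0.0146, called in 3 of 7 refits, up to 0.104 without Shn-RNAi,PucE69/+ library 2). The cell death activators hid and rpr, which ecdysone induces in dying larval tissues, had log2 differences of 1.24 (SE 0.32, adjusted p = 0.0519) and 1.94 (SE 0.83, adjusted p = 0.183) in the first comparison and of 1.49 (SE 0.32, adjusted p = 0.0215) and 3.08 (SE 0.76, adjusted p = 0.0326) in the second. In the second comparison hid kept its call in 3 of 7 refits and rpr in 1, with adjusted p up to 0.21 and 0.284 without Shn-RNAi,PucE69/+ library 2, and rpr had a log2 difference of 4.4 without control library 2. Counts of rpr were 0, 4 and 1 in control, 8 and 6 in the Shn-RNAi-labelled libraries, and 12 and 17 in the Shn-RNAi,PucE69/+-labelled libraries. Of 15 listed coregulators, among them the ecdysone receptor coactivator tai and the corepressor Smr, 13 were tested and 0 were called in either direction in any comparison.

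Among 11 listed genes of sterol and lipid handling with which Hr96 is linked, 10 were tested. In both comparisons with control 1 was called higher and 0 lower (median log2 difference 0.18 and 0.15). Both libraries of the RNAi group lay above every control for 2 and 2 of the 10, against 22.1% and 28.5% of all genes tested. They lay below every control for 2 and 3, against 21.2% and 26.4%. The called gene, Npc1a, encodes a protein that moves sterols out of late endosomes. It stood at 33.6, 36.9 and 29.5 CPM in control, at 68.6 and 68.5 CPM in the Shn-RNAi-labelled libraries, and at 90.4 and 72.8 CPM in the Shn-RNAi,PucE69/+-labelled libraries. It was called higher by a log2 difference of 1.04 (SE 0.16, edgeR adjusted p = 0.00839) in the first comparison and of 1.29 (SE 0.16, adjusted p = 0.00321) in the second, and in all 7 refits of both.

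Among the uncalled genes of this list was magro (mag), a gut lipase and sterol esterase that Hr96 is known to activate. It stood at 988, 682 and 1260 CPM in control, against 541 and 342 CPM in the Shn-RNAi-labelled libraries. It was at 548 and 216 CPM in the Shn-RNAi,PucE69/+-labelled libraries. All 4 RNAi libraries lay below all controls, but the difference was not called (log2 -1.14, SE 0.44, edgeR adjusted p = 0.141 in the first comparison; -1.35, SE 0.44, 0.0771 in the second). Npc1b, which is needed to absorb dietary sterol, stood at 292 to 326 CPM in control and overlapped with both groups (338 and 271 CPM, then 483 and 302 CPM). Neither mag nor Npc1b was among the genes named by rule, and both were picked after their values were seen. DESeq2 called mag lower in both comparisons with control.

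Genes of fatty acid oxidation and related mitochondrial steps, a programme that depends on Hnf4 in larvae, were mostly not called. Of 19 tested, 0 were called higher and 2 lower in the Shn-RNAi-labelled libraries (median log2 difference -0.33), and 1 higher and 1 lower in the Shn-RNAi,PucE69/+-labelled libraries (median -0.44). Both libraries of the RNAi group lay below every control for 12 and 11 of the 19, against 21.2% and 26.4% of all genes tested. The 19 included the sugar metabolism genes fbp and Hex-C, which lay below every control in both comparisons. CG3902, an acyl-CoA dehydrogenase, was called lower in both. Its control libraries held 156, 145 and 231 CPM, with 79.4 and 74.8 CPM in the Shn-RNAi-labelled libraries, and 57.0 and 71.6 CPM in the Shn-RNAi,PucE69/+-labelled libraries. Its log2 difference was -1.20 (SE 0.24, edgeR adjusted p = 0.0204, called in 2 of 7 refits, up to 0.0803 without Shn-RNAi library 2) and -1.46 (SE 0.24, adjusted p = 0.0084, called in 5). The gluconeogenic enzyme gene fbp was called lower in the first comparison (-0.82, SE 0.20, adjusted p = 0.0396) and kept that call in 0 of 7 refits. The carnitine palmitoyltransferase gene whd was called higher in the second (1.79, SE 0.38, adjusted p = 0.0208), with 655 and 238 CPM in its 2 libraries against 117 to 149 CPM in control. Without Shn-RNAi,PucE69/+ library 1 its log2 difference was 0.88 (adjusted p = 0.119).

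Of 15 tested genes of glycolysis and the pentose phosphate pathway, a set known to depend on ERR in larvae, 1 was called higher and 1 lower in both comparisons with control. Their median log2 difference was -0.45 and -0.32. In each comparison 10 of the 15 had both libraries of the RNAi group below every control, against 21.2% and 26.4% of all genes tested. How far the transcript-length trend enters the medians, and the numbers of genes beyond every control, of this and the preceding lists was not tested. Ldh, lactate dehydrogenase, was the gene called higher. It stood at 62.3, 65.5 and 70.4 CPM in control, at 135 and 190 CPM in the Shn-RNAi-labelled libraries, and at 248 and 165 CPM in the Shn-RNAi,PucE69/+-labelled libraries. The log2 difference was 1.30 (SE 0.22, edgeR adjusted p = 0.012, called in 5 of 7 refits, up to 0.0572 without control library 1) and 1.64 (SE 0.22, adjusted p = 0.00411, called in all 7). Taldo, the transaldolase of the pentose phosphate pathway, was called lower, from 199 to 237 CPM in control to 113 to 144 CPM in the other 4 libraries. Its log2 difference was -0.78 (SE 0.18, adjusted p = 0.0332, called in 1 of 7 refits, up to 0.14 without control library 1) and -0.79 (SE 0.18, adjusted p = 0.025, called in 3, up to 0.197 without Shn-RNAi,PucE69/+ library 2). No gene of any of these lists was called between the RNAi groups.

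**Figure D5:**
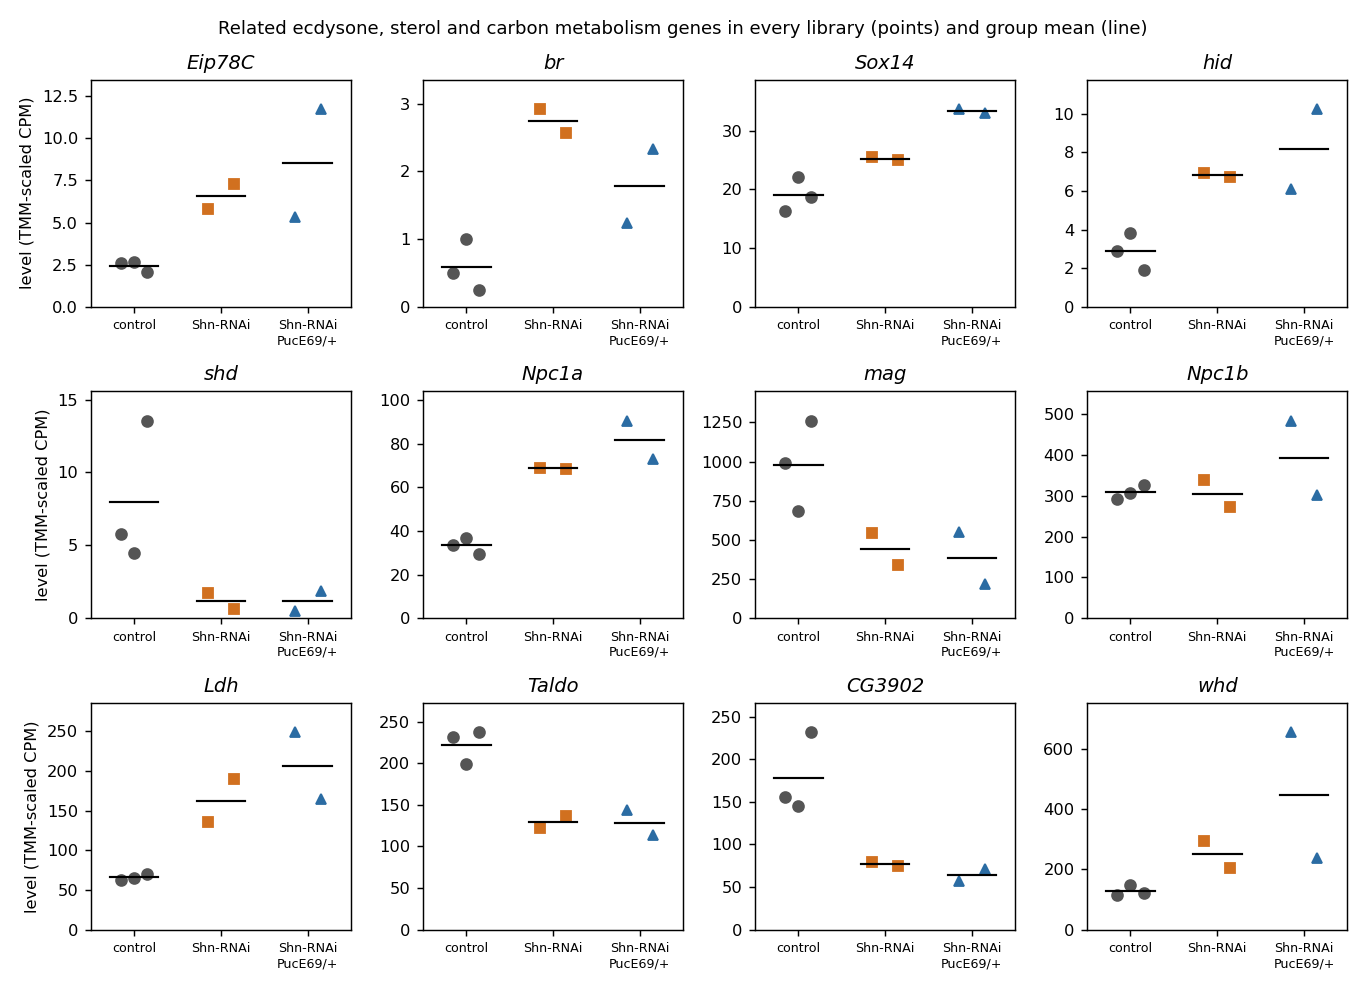
Level in TMM-scaled CPM (vertical axis, from 0) of 12 genes that respond to ecdysone or belong to sterol, fatty acid and sugar metabolism, by group. Points are libraries and lines are group means. Eip78C, br, Sox14, hid, Npc1a, Ldh and whd lie above all controls in the other 4 libraries, and shd, mag, Taldo and CG3902 below. Npc1b overlaps control.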

How the data were processed

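The authors deposited raw counts for each gene, in whole numbers. Salmon 1.0.0, DESeq2 and BDGP6 appear in the submitters' processing notes, with no role stated. Columns were matched to groups only, so library numbers pair nothing. Symbols and transcript lengths came from the Ensembl 115 annotation of BDGP6.54 (99.7% of 10902 symbols matched). Counts were filtered with filterByExpr (9076 genes left), scaled with TMM and tested in 1 edgeR 4.0.16 quasi-likelihood fit of 7 libraries and 3 groups (R 4.3.3, 4 residual degrees of freedom, common biological coefficient of variation 21.6%), two-sided, and tested first on simulated data. The SE is the log2 difference over the square root of F. Alternatives used DESeq2 1.42.0, limma-voom 3.58.1, other scalings, filters, libraries and a transcript-length offset. Named genes were the 10 members, up to 6 called genes of each list and direction (else the 4 with the smallest p), and the 2 nearest in pattern to a called member. Members and lists were chosen with earlier results of these data known. Promoter and protein sequences were not analysed here.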

Additional observations from a re-analysis of the deposited data

How the results depend on the processing

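No paired analysis was possible because the columns name a group and not a sample, and the labels number the 7 samples in 1 run. Of the 10 genes, the number called higher in Shn-RNAi against control was 1, and 0 in a fit of only these groups. The number called lower in Shn-RNAi,PucE69/+ against control was 0, and 1 (ERR) with DESeq2, RLE scaling, upper-quartile scaling, a filter of 1 CPM in 2 libraries, the length trend taken out, or only these groups. Without 1 library at a time, each of these counts and those of the other direction ran from 0 to 1. Every change of sign was in an uncalled gene, and the cause was not tested. In Shn-RNAi against control, taking out the length trend gave log2 differences of -0.01 for EcR, -0.09 for usp, -0.18 for Eip75B, -0.12 for ftz-f1 and -0.19 for Hnf4, and Hnf4 was -0.002 with limma-voom and -0.03 with upper-quartile scaling. In Shn-RNAi,PucE69/+ against control, EcR was -0.18 and Eip75B -0.06 without the length trend, EcR was -0.02 with upper-quartile scaling, and ftz-f1 was 0.004 with limma-voom. Between the RNAi groups, Eip75B was 0.02 with limma-voom and 0.13 without the length trend. Without 1 library at a time, Shn-RNAi against control ran from -0.28 to 0.77 for EcR, -0.14 to 0.22 for usp, -0.28 to 0.58 for Eip75B, -0.13 to 1.33 for Hr3, -0.22 to 0.22 for Hnf4, -0.16 to 0.56 for ftz-f1, -0.18 to 0.13 for Npc1b and -0.30 to 0.05 for Oatp74D. Shn-RNAi,PucE69/+ against control ran from -0.17 to 0.21 for EcR, -0.19 to 0.19 for ftz-f1 and -0.03 to 0.65 for Npc1b. Between the RNAi groups the ranges were -0.75 to 0.31 for EcR, -0.03 to 0.35 for usp, -0.42 to 0.45 for Eip75B, -0.32 to 0.44 for Eip74EF, -0.28 to 0.28 for Hr96 and -0.58 to 0.14 for ftz-f1. Of all single-gene values under the alternatives, 837 kept direction and side of the threshold, 94 lost and 21 gained a call, and 37 changed sign. Low counts limit Hr3, rpr and br. Over all genes, Shn-RNAi against control had 550 higher and 323 lower calls, 722 and 575 with DESeq2, and 661 and 606 without the length trend. Shn-RNAi,PucE69/+ against control had 795 and 567, and 1194 and 1012 in a fit of only these groups. Between the RNAi groups DESeq2 called 40 higher and 53 lower.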
